A study of Oryzias minutillus with 2 samples.

Results

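The most abundant transcript clusters common to both sexes were examined in Oryzias minutillus, the Thai medaka, a small ricefish of fresh water. They were chosen on the measured values, as clusters of a de novo assembly that reached 1000 FPKM in both sexes and whose log2(FPKM + 1) differed by less than 2 between them, that is by under 4-fold. FPKM is the number of fragments per kilobase of cluster and per 1000000 mapped fragments. The rule found 136 of 73551 clusters (0.185%). The samples were 1 male and 1 female library, each from whole body. Neither carries a treatment other than DNase I, and both are labelled Thailand. The labels do not say how old the fish were, in what reproductive state, or how many animals went into a library. The files hold 1 value per cluster for each sex, which may combine several runs or libraries, so no value has a replicate error or a p-value, and every difference describes these 2 libraries only. In RNA from a whole body, fewer cells of a type and less RNA per cell cannot be told apart.

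A whole-body RNA sample mixes all tissues in proportion to the RNA they contribute, and in a fish the trunk is mostly skeletal muscle. Transcripts that are usually among the most abundant in such samples are those of contractile proteins such as actin and myosin, of creatine kinase and other enzymes of muscle energy supply, of the ribosomal proteins and elongation factors that carry out translation in every cell, and of the mitochondrial genome. This is background only. The identifiers are assembly numbers that the files pair with no gene name or sequence. No cluster can therefore be assigned to any of these classes, and the tissue label could not be checked against marker genes.

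The shared abundant clusters made up a large part of both transcriptomes. Summed, they reached 430068 FPKM in the male and 354024 FPKM in the female, or 42.6% of the male total and 35.1% of the female total. These are shares of length-scaled abundance, not of reads. Male values ran between 1039 and 17346 FPKM, with a median of 2276 FPKM. Female values ran between 1006 and 12707 FPKM, with a median of 2081 FPKM. The medians of both sexes were thus close as deposited, in a set whose rule keeps only clusters under 4-fold apart. The upper end was higher in the male.

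**Figure D1:**
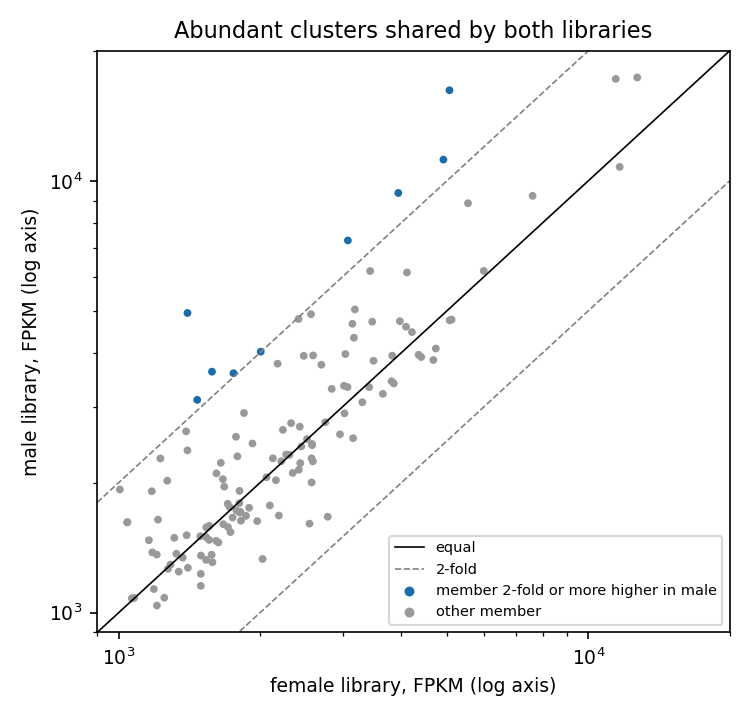
FPKM of the 136 shared abundant clusters in the male (vertical, log axis) against the female (horizontal, log axis), 1 point per cluster, with lines for equal values and for 2-fold differences. The cloud follows the line of equality, and the 9 clusters beyond a 2-fold line (blue) all lie on the male side.

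The shared clusters filled the top of the male list and less of the female list. They were 10 of the 10 most abundant male clusters and 5 of the 10 most abundant female clusters. Of the top 50 they took 50 places in the male and 39 in the female, and of the top 100 they took 93 in the male and 82 in the female. The other places were held by clusters that failed the rule. Among all clusters of at least 1000 FPKM in the female, 25 had a value lower by 4-fold or more, on the log2(FPKM + 1) scale, in the male. Those 25 held 0.189% of the male total and 8.59% of the female total.

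The shares of the sets were set side by side. The shared abundant clusters took 7.46 percentage points more of the male total, and the 25 female-higher clusters, which were chosen for that difference, took 8.40 percentage points more of the female total. All 73390 other clusters together held 57.2% of the male total and 56.3% of the female total, a sum in which differences in opposite directions cancel. FPKM is relative to the sequenced total, so an excess of one set lowers the values of the rest, and the part of this in the difference between the shares was not tested. With the totals taken without those clusters of 100 FPKM or more that were 4-fold or further apart, the shared abundant clusters held 43.2% in the male and 40.4% in the female.

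The difference in share was unevenly spread over the members. The 9 clusters that were higher by 2-fold or more in the male held 6.27% of the male total and 2.50% of the female total. Chosen for this difference, they hold a male excess of 38110 FPKM, which is 41.1% of the summed excess of 92838 FPKM of the 76 members with the higher value in the male. Set against the net difference of 76045 FPKM, after the members higher in the female, it is 50.1%. The remaining 127 held 36.3% in the male and 32.6% in the female, a difference of 3.69 percentage points. The 10 members of highest mean held 11.3% of the male total and 7.14% of the female total, and their difference in FPKM equals 54.9% of the net difference. These selections overlap, with 4 clusters in both.

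Abundance was less concentrated among the members in the female. The 10 highest members of each sex held 26.4% of the members' sum in the male and 21.2% in the female. It took 33 members to reach 50% of that sum in the male, against 39 in the female. The inverse Simpson index, which gives the number of equally abundant clusters that would be as concentrated, was 76.5 in the male and 91.1 in the female.

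**Figure D2:**
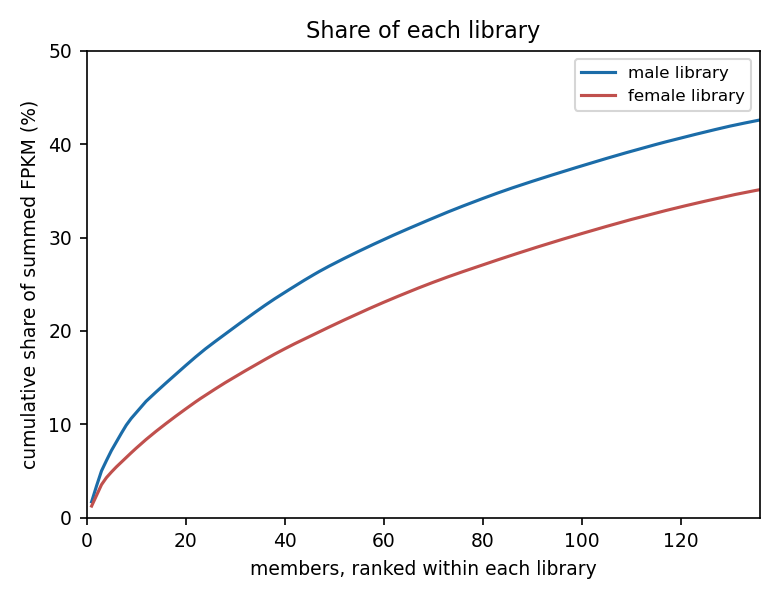
Cumulative share of the summed FPKM (vertical, percent) over the 136 shared abundant clusters, ranked from highest to lowest within each library (horizontal). The male curve lies above the female curve throughout and ends at 42.6%, against 35.1% for the female.

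The order of the members was broadly alike in the sexes. Across the 136 clusters Spearman's rho of male against female FPKM was 0.82, and Pearson's r of log2(FPKM + 1) was 0.85. These describe likeness across clusters that come from the same 2 libraries, and the rule itself limits how far a pair of values can be apart. Of the 10 highest members in each sex, 8 were the same (80%), of the 20 highest 13 (65%) and of the 50 highest 41 (82%). Ranked within the set, a cluster moved by a median of 14 places between the sexes. The shift was at most 10 places for 56 clusters and over 30 places for 19.

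The most abundant members show both steady and shifting ranks. The highest member ranked 1 among all male clusters at 17346 FPKM and 2 among all female clusters at 12707 FPKM. The member that ranked 2 in the male at 17216 FPKM was at rank 4 in the female with 11437 FPKM. The member that ranked 5 in the male at 10768 FPKM was at rank 3 in the female with 11660 FPKM. These members kept a place at the very top of both lists. By contrast, the member that ranked 4 in the male at 11193 FPKM was at rank 17 in the female with 4913 FPKM. The member that ranked 9 in the male at 7275 FPKM was at rank 42 in the female with 3076 FPKM.

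The log2 difference, male minus female in log2(FPKM + 1), had a median of 0.02, with quartiles at -0.13 and 0.44. The male value was the higher one for 76 clusters (55.9%) and the female value for 60 (44.1%). Over all 73551 clusters the male value was higher in 55.7% and the female value in 38.0%, the rest being equal. Of the 136 members, 82 (60.3%) were within 1.2-fold of equality in the values as deposited. With a weighted trimmed mean of the cluster ratios as scaling, 53 (39.0%) were, so that a majority within 1.2-fold depends on the scaling. The trim takes off the 5% most abundant clusters, and with them all members, so that mean comes from less abundant clusters. The fullest step of the distribution, between -0.25 and 0, lay just on the female side and held 49 members.

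The larger differences leaned to the male. On the same scale, 43 members were higher by 1.2-fold or more in the male and 11 in the female. Of all clusters, 42.2% differed by as much toward the male and 26.6% toward the female. At 2-fold, 9 members were higher in the male and 0 in the female, while of all clusters 12.1% were so toward the male and 8.10% toward the female. Among the 9387 clusters averaging 10 FPKM or more, the 2-fold shares were 8.95% toward the male and 10.9% toward the female. The rule used the same contrast, with an upper bound on the difference, so nothing is read from the members' counts beside those of all clusters. The 9 clusters lay between 3110 and 16203 FPKM in the male and between 1401 and 5062 FPKM in the female, with a median male to female ratio of 2.29.

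The lean depended on how the libraries were scaled. That weighted trimmed mean, which no member enters, shifts every log2 difference by 0.21 toward the female. For the same members, the male value was then the higher one in 49 (36.0%) and the female value in 87 (64.0%). At 1.2-fold the split turned, to 31 members higher in the male and 52 in the female, while at 2-fold it was 4 in the male and 0 in the female. Scaling by the median ratio of clusters averaging 10 FPKM or more shifts the differences by 0.01. It gave 71 male-higher and 65 female-higher members, with 8 and 0 at 2-fold. Either shift applies to every cluster alike. The shares of all clusters under these scalings are not given here, so nothing particular to the members is read from the turn. The direction of the members' many small differences thus turned with the scaling. The members 2-fold apart were on the male side under each of these scalings. The lowest difference of a member was -0.74, too far from 2-fold for either shift to bridge. The 0 on the female side was therefore fixed before rescaling. The rule also has a part in this. Its limit on the difference removed 1 cluster with 1000 FPKM in both sexes, which was female-higher, and rescaling the chosen members cannot bring it back.

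**Figure D3:**
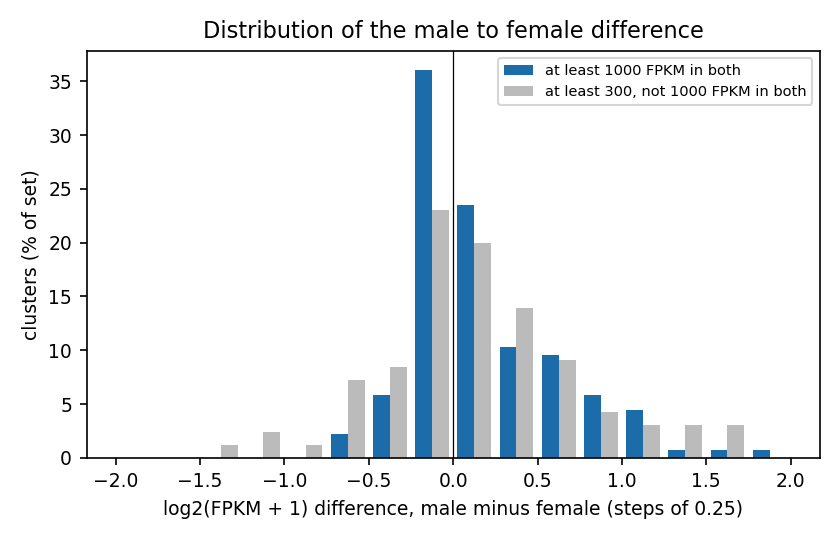
Distribution of the log2(FPKM + 1) difference, male minus female (horizontal, steps of 0.25), as percent of each set (vertical), for the 136 shared abundant clusters (blue) and the 165 clusters of the next lower level (grey). The members peak in the step between -0.25 and 0 with 36.0% of the set, and their tail reaches 1.82 on the male side and -0.74 on the female side.

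The member furthest toward the male was Cluster-4703.24015, with 4942 FPKM in the male against 1401 FPKM in the female, a log2 difference of 1.82. Its rank among all clusters was 14 in the male and 131 in the female, and its move of 98 places within the set was the largest of any member. The next was Cluster-4703.22422, with 16203 FPKM in the male against 5062 FPKM in the female, a log2 difference of 1.68. Its rank was 3 in the male and 15 in the female. Both stood apart from the next member, at 1.25.

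The members furthest toward the female differed by less. Cluster-4703.23140 had 1668 FPKM in the male against 2786 FPKM in the female, a log2 difference of -0.74, and its rank was 103 in the male and 52 in the female. Cluster-4703.22913 had 1607 FPKM in the male against 2549 FPKM in the female, a log2 difference of -0.66, and its rank was 110 in the male and 63 in the female. Neither reached a 2-fold difference.

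By classes of mean FPKM, the lean of the median toward the male was largest in the highest class. Of the 11 clusters averaging 5000 FPKM or more, 10 were higher in the male and 1 in the female, and their median log2 difference was 0.59. The 32 clusters averaging 3000 to 5000 FPKM had a median of 0.16, with 21 higher in the male and 11 in the female. The medians were 0.0029 for the 34 clusters of 2000 to 3000 FPKM, -0.053 for the 32 clusters of 1500 to 2000 FPKM and 0.0034 for the 27 clusters of 1000 to 1500 FPKM. In the lowest of these classes, 14 clusters were higher in the male and 13 in the female. At 1.2-fold, in the values as deposited, every class had more clusters higher in the male than in the female. From the lowest class to the highest, 5, 7, 9, 13 and 9 clusters were higher by 1.2-fold or more in the male. In the female 3, 3, 4, 1 and 0 were. Over all clusters the shares at 1.2-fold were 42.2% toward the male and 26.6% toward the female, so nothing particular to the classes is read from these counts. Scaled by the weighted trimmed mean, the members' split at 1.2-fold turned, to 31 higher in the male and 52 in the female over all classes. With the weighted trimmed mean as scaling the highest class kept a positive median, 0.38, and the other medians lay between -0.26 and -0.047.

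These classes hold few clusters, and the rule limits their spread. They are also cut on the mean of the same values. A high male value raises both class and difference, and a high female value raises the class and lowers the difference. Spearman's rho of the difference with the mean was 0.28 across the members. It was 0.04 across the 167 clusters with 1000 FPKM in either sex and a difference below 2. A cluster averaging under 1500 FPKM with at least 1000 FPKM in both sexes cannot reach a 2-fold difference, so the lack of such differences in the lowest class follows from the rule. The highest class held 11.9% of the male total and 7.55% of the female total, while the lowest held 3.61% of the male and 3.48% of the female total.

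**Figure D4:**
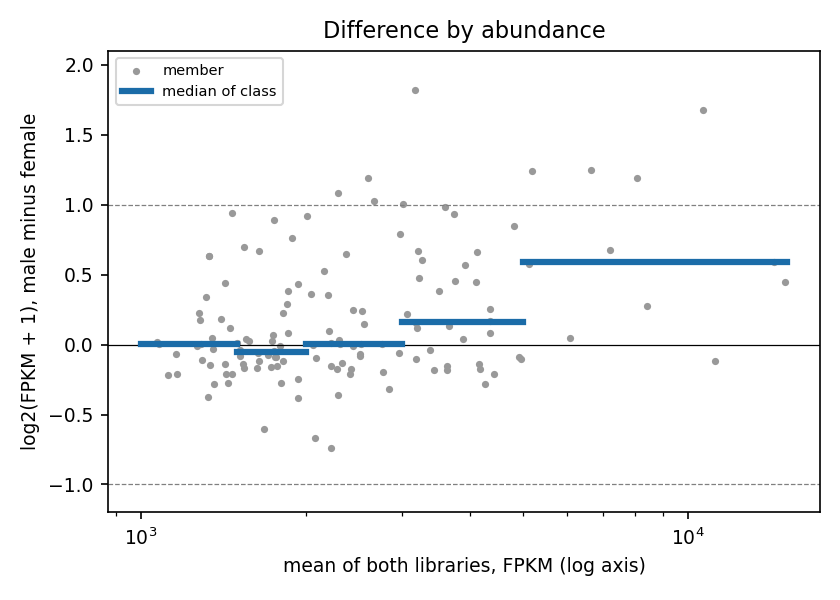
Log2(FPKM + 1) difference, male minus female (vertical), against the mean FPKM of both libraries (horizontal, log axis) for the 136 shared abundant clusters, with the median of each abundance class (blue lines) and dashed lines at 2-fold. The medians lie near 0 below 3000 FPKM and at 0.59 for 5000 FPKM upward.

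The next lower level of abundance was set beside the members. It comprised 165 clusters that reached 300 FPKM in both sexes but not 1000 FPKM in both, and that differed by less than 2 on the log2 scale. They held 11.0% of the male total and 9.75% of the female total. Their median log2 difference was 0.05, beside 0.02 for the members, and their interquartile range was 0.68, beside 0.57 for the members. In the values as deposited, 43.0% of them were within 1.2-fold of equality, beside 60.3% of the members. With the weighted trimmed mean as scaling the members' share was 39.0%, and no rescaled share is given for the 165. At 2-fold, 15 of them were higher in the male and 6 in the female. The wider spread is partly built in, since 29 of the 165 reached 1000 FPKM in 1 sex and are in this set because their other value was lower. Among the 136 that stayed under 1000 FPKM in both sexes, the interquartile range was 0.55, 49.3% were within 1.2-fold, and 3 were higher by 2-fold in the male and 3 in the female. Spearman's rho between the sexes was 0.61 across the 165, whose levels spread less than the members'. The SD of log2(FPKM + 1) was 0.67 beside 0.87 for the members in the male, and 0.60 beside 0.73 in the female. With no replicate libraries, these contrasts between the sets have no test, and the bounds of each set limit its spread.

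All 194 clusters that reached 1000 FPKM in either sex can be accounted for. Of these, 137 reached it in both, and 1 of the 137 failed the limit on the difference, at 1145 FPKM and rank 146 in the male against 6803 FPKM and rank 6 in the female. A further 57 reached 1000 FPKM in 1 sex alone. Among them 31 were within the limit on the difference, 21 reaching the minimum in the male and 10 in the female. The remaining 26 were outside it, 2 higher in the male and 24 in the female.

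The values on either side of the minimum were close, while the limit on the difference fell in a gap. The members' differences ran from -0.74 to 1.82, and the 1 cluster with 1000 FPKM in both sexes outside the limit was at -2.57. Just inside the minimum was a member with 1928 FPKM in the male against 1006 FPKM in the female, and another with 1039 FPKM in the male against 1206 FPKM in the female. Just outside was a cluster with 998 FPKM in the male against 1004 FPKM in the female, and another with 2468 FPKM in the male against 988 FPKM in the female. In 17 of the 31 clusters kept out by the minimum alone, the lower value was at least 800 FPKM. With these 31 added, 23 of 167 clusters were higher by 2-fold or more in the male and 3 in the female. More such clusters thus lay outside the minimum than inside it. That is partly built in, since the 31 have 1 value of at least 1000 FPKM and the other below it. Over all clusters the 2-fold shares were 12.1% toward the male and 8.10% toward the female. The 167 still leave out the clusters beyond the limit on the difference. Those were 2 higher in the male and 24 in the female with 1000 FPKM in 1 sex, and 1 female-higher with it in both. The 23 and 3 therefore give no lean for all 194. With those clusters counted too, the 2-fold differences as deposited were no longer more often toward the male, but by a small margin toward the female.

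The members also share a place in the assembly's numbering, which the rule did not use. Each identifier has a group number and a number within the group, and all 136 members belong to the largest group, with 71.5% of all clusters. Within that group numbers run up to 52611, and the members lie between 20307 and 26963. In the stretch between 22000 and 24000, chosen after the values were seen, lie 114 of the 136 members (83.8%) and 2001 of the 52612 clusters of the group (3.80%). The stretch as a whole held 50.8% of the male total and 51.2% of the female total, and 5.70% of its clusters were members.

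Other abundant clusters were placed there too. The largest group also held all 165 clusters of the next lower level and all 25 abundant female-higher clusters. In the stretch lay 62.4% of those 165 and 60.0% of those 25. Of the clusters of the group averaging 10 to 100 FPKM, 9.71% lay there, and of those below 1 FPKM 1.03%. The median over all clusters of the stretch was 13.4 FPKM in the male and 18.3 FPKM in the female, and over the whole group it was 2.40 FPKM in the male and 2.02 FPKM in the female. No label or file says how the numbers were assigned. Members close in number were not closer in their sex difference: the median gap in log2 difference was 0.42 over the 135 pairs of successive members and 0.37 over all 9180 pairs.

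**Figure D5:**
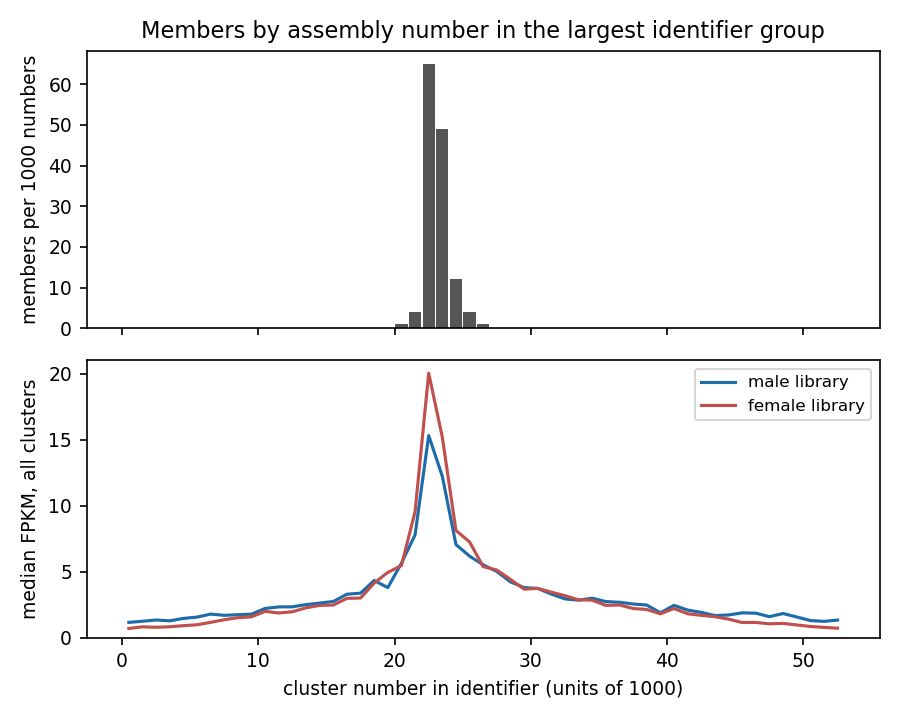
Number of shared abundant clusters (top) and median FPKM of all clusters in the male and the female library (bottom) per 1000 successive numbers within the largest identifier group (horizontal, units of 1000). Members fill only the numbers around the peak of the median, with 65 in the step that starts at 22000 and 49 in the step that starts at 23000.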

How the data were processed

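Per the labels' protocols, whole-body RNA of 1 male and 1 female sample was DNase I treated and purified with the RNeasy Mini Kit. The series' design text names an Illumina HiSeq 2500 and speaks of triplicate sequencing, while the labels list 1 sample per sex, so a deposited value may combine runs or libraries. The authors deposited 1 FPKM value per cluster and sex, to 2 decimals. The submitters' processing notes name CASAVA 1.8. Assembler, clustering, aligner, counting and filters were not given in the sources used here. Both samples came with 2 byte-identical files, of which 1 was used. FPKM summed to 1009910 for the male and 1007824 for the female. Read counts were not used here, so depth is unknown and no interval or detection floor is given.

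Values were compared as deposited, as male minus female log2(FPKM + 1), in Python 3.11.15 with pandas 2.3.3 and numpy 2.4.6. The set, its thresholds and the comparisons were chosen with earlier results of these data known. The clusters named are the 2 with the largest difference in each direction. For the weighted trimmed mean, 30% of ratios and 5% of abundances were trimmed at either end, and the weights took FPKM instead of counts. Other alternatives were the median-ratio and equal-sum scalings, the thresholds, the pseudocount, the share's denominator and the coefficient. The code was tested on 3 simulated data sets, each with 200 clusters changed in directions drawn at equal odds. That test does not show how the scaling handles changes mostly in 1 direction.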

Additional observations from a re-analysis of the deposited data

How the results depend on the processing

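Values counted as moved when they changed by over 1.5 times, or by over 0.1 for the median and the rank agreement. Of 80 values under 13 alternatives, 68 did not move so far, but part of these had little or no room to move. A pseudocount of 0.1 or 5 is small beside values of at least 1000 FPKM, and the median-ratio and equal-sum scalings shift the values little. Scaling a whole library also leaves shares and ranks as they are unless the members change. The 68 are therefore no measure of how robust the results are. With the weighted trimmed mean as scaling, the median log2 difference turned to -0.18, and of the members chosen again under that scaling 5 were 2-fold higher in the male. A minimum of 500 FPKM gave 208 members, 17 of them 2-fold higher in the male and 3 in the female, and a minimum of 2000 FPKM gave 66, with 5 higher in the male. By construction a difference limit of 1 left 0 members 2-fold apart, and with no limit 1 was female-higher. Alternatives added after seeing the data gave 5 male-higher without the 10 highest members. They gave 23 male-higher and 3 female-higher with 1000 FPKM in either library and the limit on the difference kept. The shares ranged from 30.3% to 49.1% in the male and from 24.3% to 40.9% in the female over all alternatives. Both ends came from a changed minimum, 2000 FPKM for the lowest and 500 FPKM for the highest shares, and so from other sets of clusters. Under the scalings alone the shares stayed between 42.4% and 42.9% in the male and between 35.0% and 35.2% in the female. No paired analysis was possible because only 1 library represents either sex, and none could be left out. Depth is unknown.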
